A study of Mus musculus with 64 samples.

Results

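Respiratory complex III and its Rieske assembly factor were followed in microglia of mice with a knockout of the Rieske iron-sulphur protein. The genes were the 10 rows of the deposited count table named Uqcrfs1, Uqcrc1, Uqcrc2, Cyc1, Uqcrb, Uqcrh, Uqcrq, Uqcr10, Uqcr11 and Bcs1l. They are 10 of 45708 rows, and all 10 passed the filter on low counts, as did 18413 rows in all. Uqcrfs1 encodes the Rieske protein (RISP), which is the deleted gene, and the other 9 genes are called its partners here. They are 8 further nuclear-encoded subunits and Bcs1l. The question was whether the messages of the partners follow the lost Rieske message.

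The 64 libraries were bulk RNA-seq of microglia sorted from whole brain with CD11b and CD45. The 3 genotypes in the labels were RISP KO, RISP Het and RISP WT. KO libraries came from naive adult mice (13), from mice given cuprizone (6), from mice at PLX3397 depletion (2) and from mice at PLX3397 repopulation (4). Het libraries came from naive adult (13), naive old (3), cuprizone (4), depletion (2) and repopulation (4) mice. WT libraries came from naive adult (5), depletion (4) and repopulation (4) mice. Cuprizone is a copper chelator fed to mice to make oligodendrocytes die and myelin break down. PLX3397 is an inhibitor of the CSF1 receptor that removes microglia, and once it is withdrawn microglia fill the brain again. Apart from the old Het mice, every mouse was labelled adult. Dose, day and sex are not in the labels, nor is the deleted part of Uqcrfs1, nor whether replicates are separate animals, so p-values measure the spread between these libraries, which may be technical. The table has a row for a CreERT2 transgene, a tamoxifen-dependent recombinase, and each of the 64 libraries had counts on it (171 to 928 CPM, the TMM-scaled counts at a common library size), the WT libraries included. The labels name neither its promoter nor a tamoxifen schedule.

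Complex III, the cytochrome bc1 complex, sits in the inner mitochondrial membrane, takes electrons from ubiquinol, hands them to cytochrome c and pumps protons as it does so. Its catalytic subunits are cytochrome b, which mitochondrial DNA encodes, cytochrome c1 (Cyc1) and the Rieske protein, and its other subunits are the core proteins Uqcrc1 and Uqcrc2 and a set of small proteins. The Rieske protein joins the complex last: it is made in the cytosol, folded with its iron-sulphur cluster in the matrix and pulled across the inner membrane by Bcs1l, an AAA-type ATPase. Microglia are the resident macrophages of the brain, able to run on respiration and on glycolysis.

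Total counts per library ran from 2.695 to 24.03 M (M, 10 to the sixth power), with a median of 11.89 M. The libraries were put into 4 sets by their counts, called batches here, and genotypes were compared inside them. The labels do not name these sets, and what set them apart is not stated. A set of 34 libraries had under 1% of counts on the noncoding RNA genes Gm26917 and Yam1 and is called ncRNA-poor (naive KO 1 to 5, Het 1 to 4 and WT 1 to 5, and all PLX3397 libraries). The rest were 13 middle-depth libraries (naive KO 6 to 11 and Het 5 to 11, 6.379 to 11.69 M counts), 7 deep ones (naive KO and Het 12 and 13, and the old Het, 15.93 to 24.03 M) and the 10 shallow cuprizone ones (2.695 to 5.1 M). The shallow set holds all cuprizone libraries and no others, so batch and treatment cannot be told apart there. The protocol text gives an older sequencer with shorter reads for untreated KO and wild-type animals and a newer one for everything else, without naming libraries. Read that way, genotype and sequencer cannot be told apart in naive KO against Het or in naive Het against WT. Nor can treatment and sequencer in the comparisons with naive libraries. The 10 microglial marker genes were detected in every group, with a summed level of 17480 to 57340 CPM, and the lists of other cell types summed to at most 17810 CPM for red blood cells, 1850 for oligodendrocytes, 1229 for border-associated macrophages, 504.6 for endothelial cells and 5.34 for lymphocytes. TMM corrects the totals for genes that take up much of a library. Fold changes are log2, with their SE, from edgeR's quasi-likelihood test on the counts, and a gene is said to rise, fall or be called where its Benjamini-Hochberg adjusted p over 18413 genes was under 0.05. In bulk RNA, fewer cells that express a gene and less of its RNA per cell cannot be told apart.

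Start regions are printed for the 4 partners that rose in at least 1 comparison and are in the promoter table used here (Uqcrh, Uqcr11, Uqcr10, Bcs1l) and for Uqcrc1, which rose in none. Each is 250 bases before to 50 bases after the RefSeq start on the gene's own strand, 5′ to 3′, from RefSeq on GRCm38.p6. The table held 6 of the 10 genes. Capitals mark exact matches on either strand to 3 motifs that respiratory chain promoters are known for: the ETS-type CCGGAAGT (the factor GABP binds such sites), the NRF1-type GCATGCGC and the CRE-type TGACGTCA. Uqcrh is shown from chr4:116075021-116075320 (minus strand), Uqcr11 from chr10:80406772-80407071 (minus), Uqcr10 from chr11:4704295-4704594 (minus), Bcs1l from chr1:74588039-74588338 (plus) and Uqcrc1 from chr9:108936398-108936697 (plus).
Uqcrh: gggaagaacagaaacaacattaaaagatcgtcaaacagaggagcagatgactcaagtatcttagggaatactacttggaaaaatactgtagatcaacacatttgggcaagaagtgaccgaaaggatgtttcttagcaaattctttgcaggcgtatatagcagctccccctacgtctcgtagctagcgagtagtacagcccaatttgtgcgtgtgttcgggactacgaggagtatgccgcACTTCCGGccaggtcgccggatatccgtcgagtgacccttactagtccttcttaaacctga
Uqcr11: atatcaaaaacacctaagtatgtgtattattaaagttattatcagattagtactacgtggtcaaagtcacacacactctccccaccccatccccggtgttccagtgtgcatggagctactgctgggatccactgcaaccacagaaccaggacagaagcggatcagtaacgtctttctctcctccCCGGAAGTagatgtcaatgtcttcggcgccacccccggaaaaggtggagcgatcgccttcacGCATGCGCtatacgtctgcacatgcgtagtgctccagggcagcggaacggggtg
Uqcr10: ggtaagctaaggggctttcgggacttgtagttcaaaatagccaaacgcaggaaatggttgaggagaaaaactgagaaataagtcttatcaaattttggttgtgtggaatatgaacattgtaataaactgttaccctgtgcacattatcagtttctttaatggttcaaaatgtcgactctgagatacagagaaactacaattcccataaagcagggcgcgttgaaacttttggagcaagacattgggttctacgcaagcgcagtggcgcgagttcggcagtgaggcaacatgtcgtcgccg
Bcs1l: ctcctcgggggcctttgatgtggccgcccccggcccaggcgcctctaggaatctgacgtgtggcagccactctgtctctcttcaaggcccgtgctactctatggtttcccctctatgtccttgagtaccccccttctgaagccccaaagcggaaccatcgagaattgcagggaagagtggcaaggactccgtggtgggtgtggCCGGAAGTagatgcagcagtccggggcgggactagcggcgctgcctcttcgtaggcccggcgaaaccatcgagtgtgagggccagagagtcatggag
Uqcrc1: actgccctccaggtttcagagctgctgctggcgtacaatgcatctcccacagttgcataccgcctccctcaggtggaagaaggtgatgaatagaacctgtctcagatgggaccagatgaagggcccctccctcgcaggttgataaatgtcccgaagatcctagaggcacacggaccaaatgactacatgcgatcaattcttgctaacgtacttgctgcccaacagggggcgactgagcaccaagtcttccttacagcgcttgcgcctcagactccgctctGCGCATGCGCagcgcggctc

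Uqcrh, Uqcr11 and Bcs1l hold the ETS-type letters, in Uqcrh on the opposite strand (ACTTCCGG). Uqcr11 also holds the NRF1-type letters, and Uqcrc1 holds them on both strands in overlapping copies. Uqcr10 holds none of the 3 motifs, and the Uqcrfs1 start region holds the CRE-type letters alone. Of 32851 promoters in the table, 3.89% hold the ETS-type, 2.71% the NRF1-type and 1.79% the CRE-type motif. A match is a description of these letters and not a measured binding site.

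Uqcrfs1 (ENSMUSG00000038462, GRCm38 chr13:30540308-30545362, minus strand) fell in KO microglia in every setting with a KO and a control arm. In the middle-depth naive libraries the 6 KO values were 1.24 at the lowest, 2.29 at the median and 3.7 CPM at the highest, against 9.16, 15.1 and 17.9 CPM in the 7 Het libraries, so the groups did not overlap (1.35% of all genes lay wholly below). The fall was -2.54 (SE 0.23, edgeR adjusted p = 7.06e-12), where 6.07% of all genes tested were called lower. In the deep libraries the KO values were 2.82 and 2.67 CPM, against 11.4 and 12.7 CPM in Het (log2 fold change -2.14, SE 0.38, adjusted p = 0.000827, 0.223% of genes called lower and 21.3% wholly below). Over the 3 naive batches together the fall was -2.20 (SE 0.15, adjusted p = 3.12e-16, 7.64% of genes called lower). In the ncRNA-poor naive libraries the KO values were 8.65, 5.33, 9.32, 6.96 and 7.74 CPM, against 37.7, 23.1, 21.3 and 19.0 CPM in Het and 43.8, 42.2, 40.4, 35.3 and 34.4 CPM in WT. KO lay wholly below both controls (4.11% of all genes did so against Het and 1.69% against WT), with a log2 fold change of -1.73 against Het (SE 0.24, adjusted p = 8.09e-06, 1.25% of genes called lower) and of -2.37 against WT (SE 0.23, adjusted p = 6.63e-10, 0.787% called lower). Het replicate 1 lay inside the WT range, and without it the change against Het was -1.47 (adjusted p = 0.000345).

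The KO cuprizone libraries held the least Uqcrfs1 message. Their 6 values were 0 at the lowest, 0.85 at the median and 1.47 CPM at the highest, against 11.5, 10.3, 12.9 and 12.8 CPM in the 4 Het libraries. They rest on 0 to 5 counts a library, and 0 counts in KO replicate 5 allow up to 0.758 CPM (3 counts, counting error only). The fall was -4.0 (SE 0.33, adjusted p = 4.35e-13, 5.83% of genes called lower and 3.8% wholly below). Set against the middle-depth naive fall, the difference between the KO effects was -1.45 (SE 0.42) and was not called (adjusted p = 0.118). At depletion the 2 KO libraries had 13.5 and 9.1 CPM, against 30.6 and 51.8 CPM in Het and 46.3, 62.1, 36.3 and 42.8 CPM in WT (log2 fold change -1.96 against the mean of the controls, SE 0.32, adjusted p = 0.000256, 0.614% of genes called lower and 5.25% wholly below). Without KO replicate 2 the value was -1.70 and no longer called (adjusted p = 0.0579), with the lone KO library assumed to vary like the other groups. At repopulation KO had 9.22, 6.78, 6.57 and 10.9 CPM, against 29.0, 29.9, 29.2 and 35.9 CPM in Het and 50.9, 46.8, 65.4 and 56.9 CPM in WT. Those changes were -1.89 against Het (SE 0.25, adjusted p = 6.79e-07, 2.48% of genes called lower and 7.08% wholly below) and -2.72 against WT (SE 0.26, adjusted p = 1.39e-10, 2.53% called lower and 7.09% wholly below).

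As means, KO microglia held 17.2% of the Het level of Uqcrfs1 in the middle-depth naive libraries, 22.7% in the deep ones, 30.1% in the ncRNA-poor ones, 6.34% after cuprizone and 27.0% at repopulation. At depletion they held 25.1% of the level of the controls. They held 19.4% of the WT level in the ncRNA-poor naive libraries and 15.2% at repopulation. Het microglia stood between the other genotypes at repopulation, where all 4 lay below all 4 WT libraries (1.09% of genes did so). Their change against WT was -0.83 (SE 0.24, adjusted p = 0.831), and in naive libraries it was -0.64 (SE 0.23, adjusted p = 0.41). Neither passed the test, and in those comparisons with WT edgeR called 4 of 18413 genes in naive microglia, 0.0109% in each direction. In repopulated microglia edgeR called 0 genes (652 had an unadjusted p under 0.05, DESeq2 called 12).

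**Figure D1:**
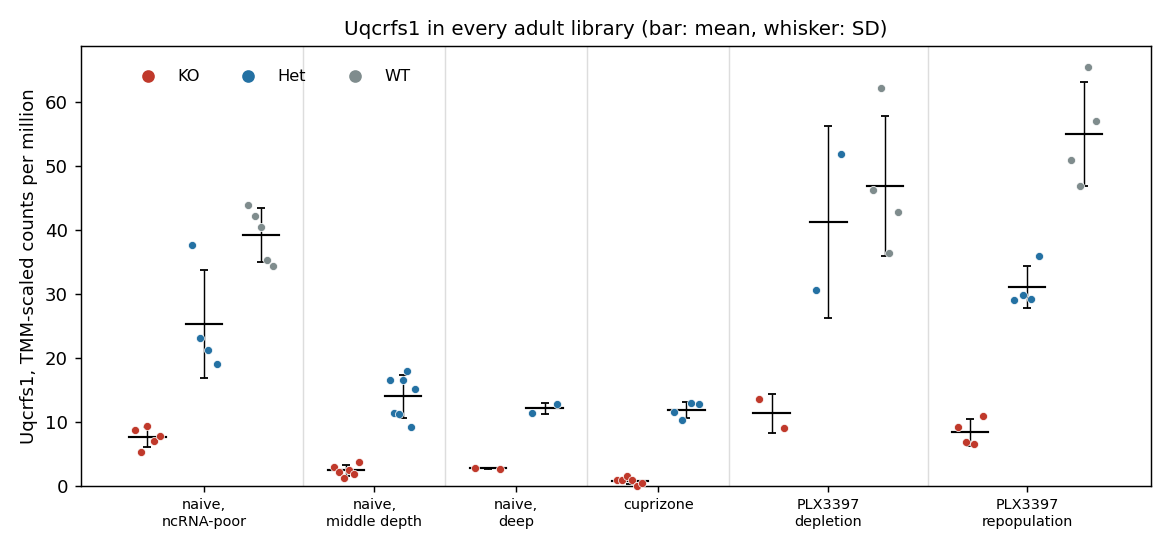
Uqcrfs1 in every adult library, in TMM-scaled CPM on the vertical axis, by treatment and library batch along the horizontal axis, with KO left of Het and WT. Points are libraries, bars are means and whiskers are SD; each KO group lies below its controls, and the cuprizone KO libraries lie between 0 and 1.47 CPM.

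The core proteins and cytochrome c1 did not follow Uqcrfs1. Uqcrc1 and Uqcrc2 are the large core proteins on the matrix side, related to the peptidase that cuts mitochondrial presequences, and Cyc1 passes electrons on to cytochrome c. Uqcrc1 (chr9:108936633-108949623) ranged over 42.0, 58.7 and 68.9 CPM (lowest, median, highest) in the 6 middle-depth KO libraries, against 41.4, 50.0 and 69.9 CPM in the 7 Het ones, nearly the same range. Its log2 fold change was 0.09 (SE 0.13) there, 0.02 (SE 0.09) over the naive batches, 0.01 (SE 0.15) after cuprizone, -0.10 (SE 0.14) against WT in naive and -0.03 (SE 0.16) against WT in repopulated microglia. Over the naive batches its 95% interval, -0.16 to 0.20, excludes a fall of the size of that of Uqcrfs1. Cyc1 (chr15:76343523-76346260) had 13.5, 16.5 and 21.4 CPM in middle-depth KO, against 9.78, 12.8 and 20.2 CPM in Het, and changed by 0.23 (SE 0.10, adjusted p = 0.107) over the naive batches and by 0.26 (SE 0.17, adjusted p = 0.343) after cuprizone. Uqcrc2 (chr7:120635176-120659524) was the most scattered, with 25.5, 42.5 and 68.4 CPM in KO, against 10.5, 29.2 and 49.1 CPM in Het, and changed by 0.38 over the naive batches (SE 0.16, adjusted p = 0.0878). With all libraries in the fit, edgeR called 0 of the 3 in each of the 9 comparisons of KO with a control, and at an unadjusted p under 0.05 it had Uqcrc2 in the middle-depth comparison and Uqcrc2 and Cyc1 over the naive batches; DESeq2 called 0 of the 3 there. Leaving out single libraries changed this: without Het replicate 9 Cyc1 rose by 0.39 in the middle-depth libraries (adjusted p = 0.0408) and Uqcrc2 by 0.46 over the naive batches (adjusted p = 0.0314). Over the naive batches Uqcrc2 was also called without Het replicate 11 (0.45, adjusted p = 0.0416) or KO replicate 6 (0.44, adjusted p = 0.0492), and Cyc1 without Het replicate 9 (0.29, adjusted p = 0.0248) or 10 (0.27, adjusted p = 0.0467).

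**Figure D2:**
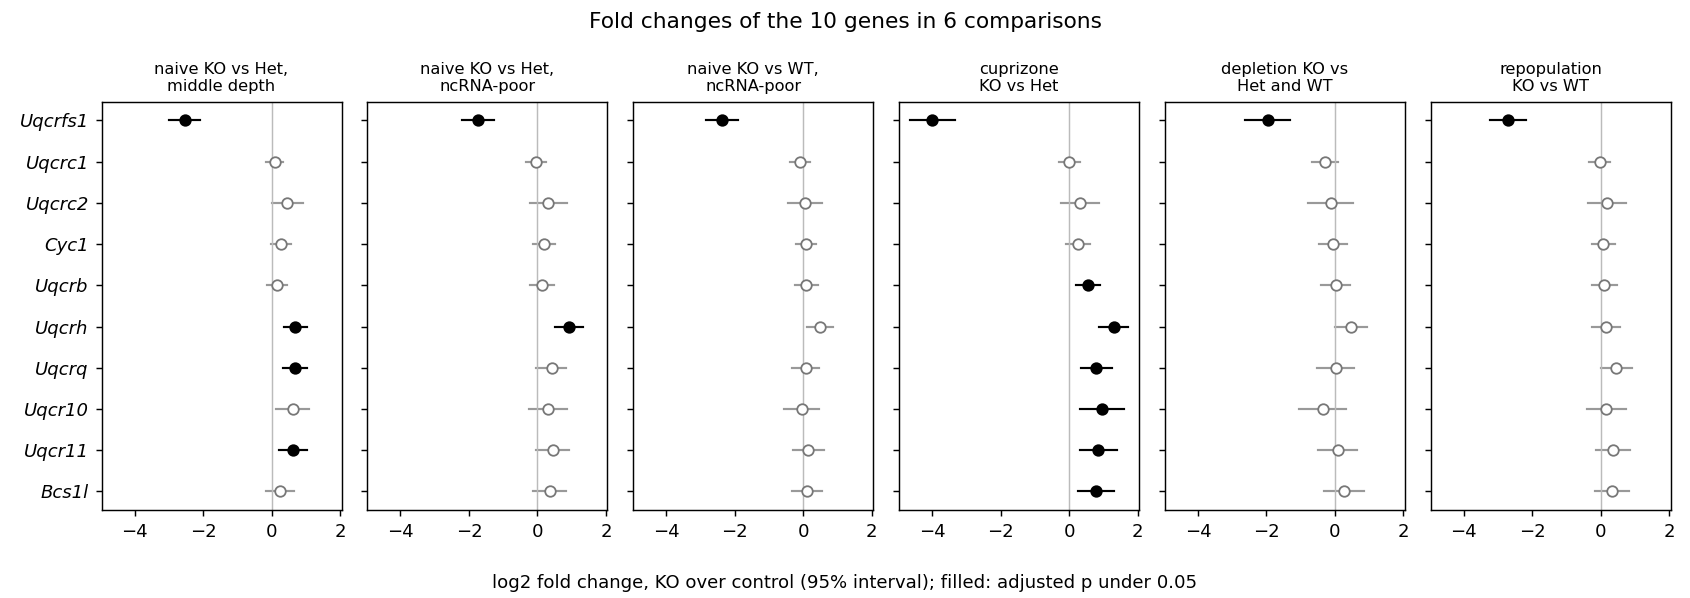
Log2 fold changes of the 10 genes (rows), KO over control, with 95% intervals, in 6 comparisons (panels); filled points have an adjusted p under 0.05. Uqcrfs1 lies between -4.0 and -1.73, while no partner is called lower and the filled partner points all lie above 0.

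Uqcrh, Uqcrq and Uqcr11, 3 of the 5 small subunits, were higher in KO than in Het microglia of the middle-depth naive libraries. There 3 of the 9 partners rose and 0 fell, where 7.68% of all genes were called higher; the median partner changed by 0.451 and the median of all genes by 0. Uqcrh (chr4:116066965-116075071), the acidic hinge protein that sits by cytochrome c1, had 26.0, 33.4 and 45.9 CPM in the 6 KO libraries (lowest, median, highest), against 12.8, 19.99 and 36.0 CPM in the 7 Het ones. The KO libraries were the higher group, although Het replicates 9 and 11 reached into their range. The rise was 0.69 (SE 0.16, adjusted p = 0.0025). Uqcrq (chr11:53427922-53430831), a small subunit next to cytochrome b, had 24.4, 30.2 and 37.2 CPM in KO, against 12.7, 15.1 and 30.7 CPM in Het, and rose by 0.68 (SE 0.18, adjusted p = 0.00688). Here too Het replicates 9 and 11 were the ones inside the KO range. Uqcr11 (chr10:80402997-80406830), another of the small subunits, had 7.43, 15.3 and 21.5 CPM in KO, against 4.25, 9.55 and 13.4 CPM in Het, and rose by 0.63 (SE 0.20, adjusted p = 0.0304). Uqcr11 kept its call in 10 of 21 alternatives tried, and Uqcrh and Uqcrq each in 20 of 21, losing it where only the libraries compared entered the fit. Without Het replicate 9, the highest Het library for Uqcrh, Uqcrq, Uqcr10 and Uqcr11, 5 partners were called here and 6 over the naive batches, and without KO replicate 6 the count over the naive batches was 5.

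Uqcr10 (chr11:4701973-4704342) was low in these libraries, with 2.72, 7.1 and 9.82 CPM in KO, against 1.98, 3.76 and 8.43 CPM in Het, and its change of 0.62 (SE 0.24) did not pass (adjusted p = 0.0785). Uqcrb (chr13:66900617-66905378), named as the ubiquinone-binding subunit, had 20.9, 32.2 and 37.4 CPM in KO, against 20.6, 25.1 and 38.6 CPM in Het, a change of 0.16 (SE 0.14, adjusted p = 0.524). Over the 3 naive batches the same 3 genes were called, Uqcrh by 0.78 (SE 0.12, adjusted p = 1.06e-06), Uqcrq by 0.51 (SE 0.13, adjusted p = 0.00267) and Uqcr11 by 0.50 (SE 0.14, adjusted p = 0.00908), with 9.23% of all genes called higher. Uqcrh and Uqcrq kept those calls in 34 of 34 alternatives and Uqcr11 in 31 of 34. Within the deep batch alone, with 2 libraries a group, edgeR called 0 of the 9 partners (1 had an unadjusted p under 0.05, DESeq2 called 0), beside 0.348% of all genes called higher. Uqcrh there had 65.4 and 51.7 CPM in KO, against 34.3 and 36.5 CPM in Het (log2 fold change 0.73, SE 0.29, adjusted p = 0.386). Both KO values lay above both Het values for Uqcrh, Uqcrc2, Uqcrb and Uqcr11, where 23% of all genes showed such a separation.

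Several measures moved with the genotype in the same libraries, and their part in the rise of these 3 genes was not tested. The share of counts on mitochondrial DNA rows was 14 to 22.8% in middle-depth KO, against 6.16 to 10.3% in Het, and the TMM factors were 0.852 to 0.959, against 0.943 to 1.08. With total counts as library size and no TMM, the median of all genes moved to -0.17 in the middle-depth, -0.14 in the over-batch and -0.38 in the deep comparison. Uqcrh and Uqcrq were still called in the middle-depth comparison on that scale (0.52, adjusted p = 0.0137, and 0.51, adjusted p = 0.0318), Uqcr11 was not (0.44, adjusted p = 0.116), and Uqcrc1 (-0.10) and Uqcrb (-0.03) took a negative sign but lay above the median. Over the naive batches Uqcrc1 was then -0.13 and Uqcrb -0.01, and in the deep batch every partner but Uqcrh (0.32) was negative. Of the called genes 55.9% were higher in the middle-depth comparison with TMM, 45.2% with DESeq2 size factors and 22.6% without TMM, and over the naive batches 54.7%, 45.7% and 21.4%. Transcript length also moved with the result. Over the naive batches 26.9% of the 167 genes with under 600 exonic bases were called higher, against 16.3% of those with 600 to 2000 and 9.02% of those with 2000 or more. Uqcrb, Uqcrh, Uqcr10 and Uqcr11 have 434 to 547 exonic bases, and Uqcrq 1827. These lengths join the exons of a gene's annotated coding transcripts, so a single message can be shorter. Summed markers of border-associated macrophages were 119.8 to 357.9 CPM in middle-depth KO, against 150.4 to 527.2 CPM in Het.

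After cuprizone 6 of the 9 partners rose and 0 fell, where 8.16% of all genes were called higher, and the median partner changed by 0.777. Uqcrh had 27.8, 28.0, 48.3, 32.9, 33.1 and 39.5 CPM in the 6 KO libraries, against 13.8, 10.9, 14.5 and 17.4 CPM in Het. All 6 KO values lay above all 4 Het values, as for Uqcr10 and for 3.91% of all genes. The rise of Uqcrh was 1.30 (SE 0.21, adjusted p = 1.15e-05), and it kept its call in 19 of 19 alternatives. Uqcr10 had 6.67, 6.73, 10.3, 7.44, 6.32 and 11.4 CPM in KO, against 3.83, 4.05, 3.69 and 5.08 CPM in Het, and rose by 0.96 (SE 0.32, adjusted p = 0.0321). Uqcrq had 29.3, 32.4, 46.0, 27.5, 27.8 and 32.4 CPM in KO, against 17.1, 14.7, 15.3 and 28.1 CPM in Het, and rose by 0.79 (SE 0.22, adjusted p = 0.0119). Only Het replicate 4 reached the KO range of Uqcrq.

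Uqcr11 had 13.3, 11.6, 16.5, 7.73, 13.9 and 11.7 CPM in cuprizone KO, against 5.89, 3.12, 10.0 and 8.29 CPM in Het, and rose by 0.85 (SE 0.27, adjusted p = 0.025). KO replicate 4 lay inside the Het range. Uqcrb had 36.0, 38.9, 56.3, 36.1, 31.6 and 39.7 CPM in KO, against 30.9, 14.3, 29.3 and 34.5 CPM in Het, and rose by 0.54 (SE 0.17, adjusted p = 0.0278), with KO replicate 5 inside the Het range. Het replicate 2 was the lowest for Uqcrb, Uqcrh, Uqcr11 and Uqcrq, and without it 1 partner, Uqcrh, was called. KO replicate 3 was the highest KO library for Uqcrb, Uqcrh, Uqcrq, Uqcr11 and Uqcrc2, and without it 3 partners were called, as without Het replicate 1 or 3. The counts of called partners were 3 with DESeq2 size factors, 2 with no filter on low counts, with no batch or with no TMM, and 1 with only the cuprizone libraries in the fit. Of the genes called after cuprizone 58.3% were higher with TMM, 42.8% with DESeq2 size factors and 33% without TMM, where Uqcrc1 was -0.13. Mitochondrial DNA rows took 9.49 to 17.4% of counts in cuprizone KO, against 4.05 to 8.34% in Het, and their part was not tested. The KO effects after cuprizone and in the middle-depth naive libraries were compared gene by gene, and edgeR called 0 of the 9 differences (1 had an unadjusted p under 0.05, DESeq2 called 0, and 0.179% of all genes were called), the largest being 0.60 for Uqcrh (SE 0.27, adjusted p = 0.385). Those libraries differ in depth as well as in treatment.

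Bcs1l (chr1:74588289-74592443), the ATPase that places the Rieske protein, did not fall with its client. It had 4.06, 7.57, 4.72, 9.45, 9.35 and 8.33 CPM in cuprizone KO, against 4.12, 3.74, 3.17 and 5.89 CPM in Het. KO replicates 1 and 3 lay inside the Het range and the other 4 above it. The rise was 0.78 (SE 0.26, adjusted p = 0.0363) and kept its call in 5 of 19 alternatives; with DESeq2 the adjusted p was 0.0767. In middle-depth naive libraries Bcs1l had 4.11, 6.66 and 9.46 CPM in KO (lowest, median, highest), against 2.81, 4.93 and 8.94 CPM in Het, a change of 0.23 (SE 0.20, adjusted p = 0.506). Against WT the change was 0.11 (SE 0.22, adjusted p = 0.944) in naive and 0.32 (SE 0.25, adjusted p = 0.578) in repopulated microglia. At repopulation its 4 KO values, 17.1, 15.8, 15.7 and 13.5 CPM, lay above the Het values of 11.5, 8.57, 12.4 and 11.1 CPM, as for 8.77% of all genes. That change was 0.51 (SE 0.25, adjusted p = 0.28), and the KO values did not lie wholly above those of WT.

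**Figure D3:**
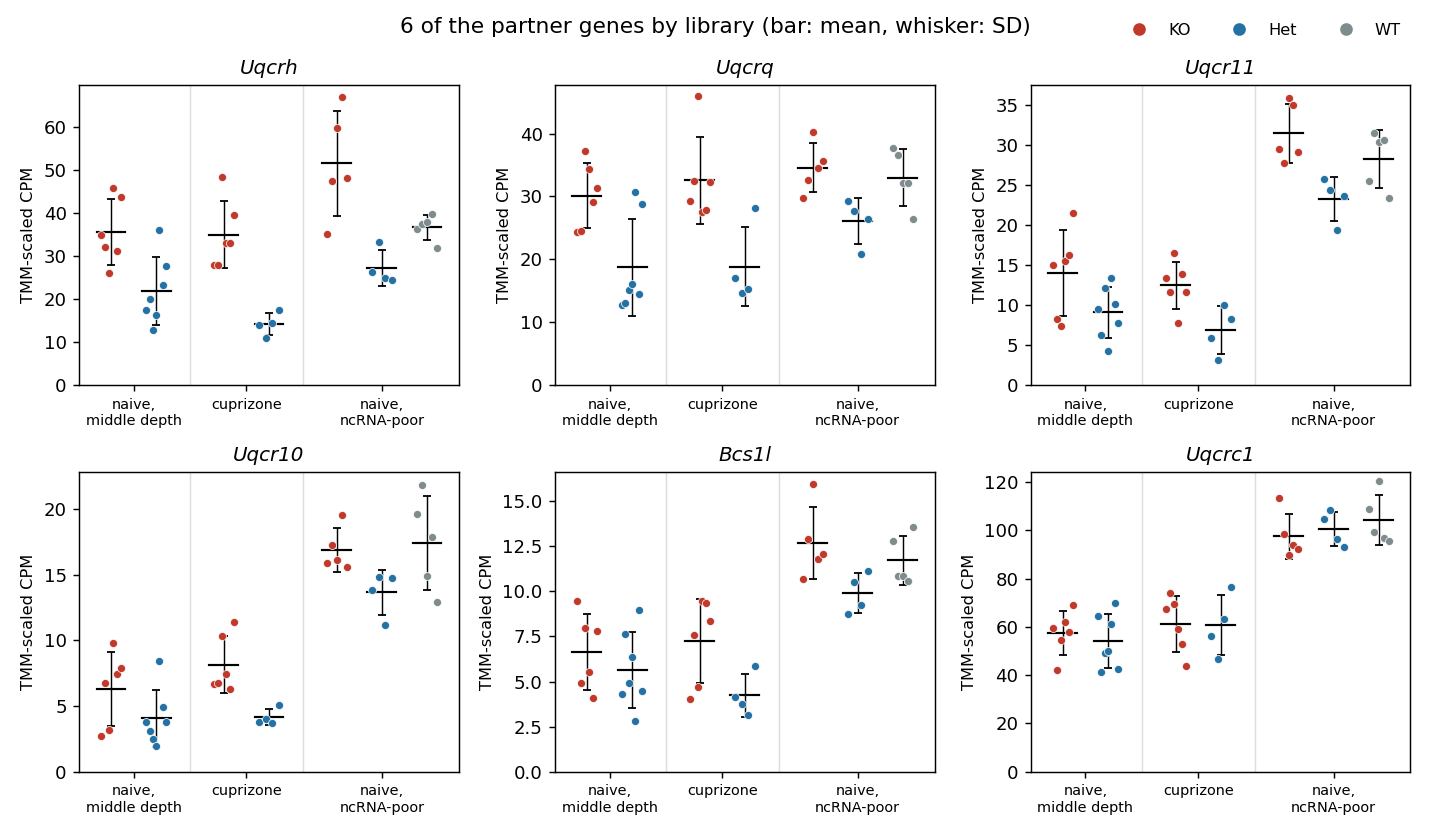
TMM-scaled CPM of 6 partners in naive middle-depth, cuprizone and naive ncRNA-poor libraries, KO left of Het and WT; points are libraries, bars are means and whiskers are SD. Uqcrh and Uqcr10 show no overlap between KO and Het after cuprizone, and Uqcrc1 overlaps in all 3 sets.

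In the ncRNA-poor naive libraries both Het and WT could be set against KO. Sex, read from Y-linked genes, was unbalanced: 4 of 5 KO, 1 of 4 Het and 5 of 5 WT libraries were male. With sex as a covariate, edgeR called 1 partner higher against Het and 0 against WT. Markers of other cell types moved with the genotype there, and their part was not tested: border-associated macrophage markers summed to 172.9 to 565.2 CPM in KO, 525.9 to 821.3 in Het and 530.1 to 1229 in WT. Monocyte markers summed to 4.83 to 17.7 CPM in KO, 17.1 to 24.3 in Het and 24.1 to 45.9 in WT, and lymphocyte markers to 0.548 to 1.56 CPM in KO, 1.52 to 2.85 in Het and 2.49 to 5.34 in WT. Against Het 1 partner rose (1.48% of all genes were called higher): Uqcrh, with 35.2, 47.4, 59.8, 66.9 and 48.1 CPM in KO, against 26.2, 33.3, 24.8 and 24.4 CPM in Het (log2 fold change 0.92, SE 0.20, adjusted p = 0.00273). Against WT, at 36.2, 37.4, 38.0, 39.8 and 31.9 CPM, KO replicate 1 lay inside the control range, and the change of 0.49 (SE 0.18) was not called (adjusted p = 0.215). The KO libraries are the same in both comparisons. For 5 partners, Uqcrc2, Uqcrh, Uqcrq, Uqcr10 and Uqcr11, all KO values lay above all Het values (4.94% of all genes), and for 0 partners above all WT values (1.48% of all genes). Against WT edgeR called 0 of the 9 partners (1 had an unadjusted p under 0.05, DESeq2 called 0), where 1.15% of all genes were called higher, with a median change of 0.0799. In Het against WT 9 of 9 partners had a negative change, with a median of -0.254 beside -0.0315 for all genes, and 0 were called (1 had an unadjusted p under 0.05, DESeq2 called 0). Uqcrh was -0.43 (SE 0.20, adjusted p = 0.565) in that comparison, which is also the test of whether the KO change of Uqcrh differs between the controls. With the protocol text read as above, genotype and sequencer cannot be told apart in Het against WT either. In the order of deposit only KO replicate 5 stands beside Het 1 to 4, and with that KO library alone the change of Uqcrh against Het was 0.80 and not called (adjusted p = 0.533); the lone library is assumed to vary like the others.

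PLX3397 libraries showed no called difference between KO and control for any partner. In simulated data, for genes averaging over 30 counts, 40% of 2-fold changes were recovered at depletion and 54% at repopulation against WT. The absence of a call therefore does not show the absence of a change. At depletion edgeR called 0 of 9 (1 had an unadjusted p under 0.05, DESeq2 called 0), and the changes ran from -0.361 to 0.48. Uqcrh had 78.7 and 79.8 CPM in the 2 KO libraries, against 47.3 and 87.4 CPM in Het and 40.2, 60.2, 44.5 and 47.0 CPM in WT (0.48, SE 0.23, adjusted p = 0.442). At depletion 1.1% of all genes were called higher. By Y-linked genes, 3 of 4 KO, 1 of 4 Het and 2 of 4 WT libraries at repopulation were male. At repopulation edgeR called 0 of 9 against Het (2 had an unadjusted p under 0.05) and 0 of 9 against WT (1 had an unadjusted p under 0.05), and DESeq2 called 0 in both, beside 2.15% and 2.26% of all genes called higher. Uqcrq, with the largest fold change of the partners at repopulation, had 71.2, 50.8, 54.4 and 48.1 CPM in KO, against 32.3, 36.1, 38.1 and 42.6 CPM in Het and 36.7, 37.7, 51.0 and 37.9 CPM in WT. The KO values of Uqcrq, Uqcrc2, Uqcr11 and Bcs1l lay wholly above the Het values (8.77% of all genes), and those of no partner wholly above the WT values (8.55%). The change of Uqcrq was 0.59 against Het (SE 0.23, adjusted p = 0.134) and 0.46 against WT (SE 0.22, adjusted p = 0.288); these share the KO libraries. The difference between the KO effects at repopulation and in naive ncRNA-poor libraries, both against WT, was called by edgeR for 0 of the 9 partners (0 had an unadjusted p under 0.05, DESeq2 called 0) and for 0.038% of all genes.

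Uqcrh also differed between treatments. Markers of other cell types moved in the same comparison, and their part was not tested: in WT border-associated macrophage markers summed to 28.8 to 74.3 CPM at repopulation, against 530.1 to 1229 CPM in naive libraries, and monocyte markers to 7.42 to 10.8 CPM, against 24.1 to 45.9 CPM. In KO the border-associated macrophage sums were 30.8 to 81.8 CPM at repopulation, against 172.9 to 565.2 CPM in naive libraries. At repopulation WT libraries had 74.9, 74.6, 78.1 and 88.1 CPM of Uqcrh, against 36.2, 37.4, 38.0, 39.8 and 31.9 CPM in naive WT, with no overlap (5.25% of all genes lay wholly above). The rise was 1.11 (SE 0.19, adjusted p = 6.1e-05), where 2.23% of genes were called higher. KO libraries had 94.99, 81.8, 90.1 and 83.9 CPM at repopulation, against 35.2, 47.4, 59.8, 66.9 and 48.1 CPM in naive KO (0.77, SE 0.19, adjusted p = 0.0117, 2.02% of genes called higher and 6% wholly above). Without naive KO replicate 1 that rise was 0.66 and not called (adjusted p = 0.0735). Of the genes called between repopulation and naive, 66% in KO and 67.2% in WT were higher with TMM, and 35.6% in KO and 36.9% in WT without it. The median of all genes without TMM was -0.14 in KO and -0.16 in WT, and Uqcrh was then 0.62 in KO (adjusted p = 0.0321) and 0.93 in WT (adjusted p = 0.000297). No other member was called between repopulation and naive, and Uqcrfs1 changed by 0.49 in WT (SE 0.23, adjusted p = 0.348) and by 0.14 in KO (SE 0.24, adjusted p = 0.891). For depletion against naive edgeR called 0 of 9 partners in KO (1 had an unadjusted p under 0.05) and 0 of 9 in WT (0 had), and DESeq2 called 0 in both, beside 1.29% and 2.87% of all genes called.

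Within the complex the balance of messages was described by the share of Uqcrfs1 and by the ratio of small to core subunits. Neither was tested, and a lower share in KO goes with the loss of Uqcrfs1 itself. Per kilobase of exon, Uqcrfs1 made up 0.678% ± 0.2 of the 9 subunit messages in middle-depth KO microglia and 5.28% ± 1.57 in Het (SD, n = 6 and 7). The shares were 0.193% ± 0.108 in cuprizone KO and 4.8% ± 0.672 in cuprizone Het (SD, n = 6 and 4), and 1.34% ± 0.294 in naive ncRNA-poor KO and 7.14% ± 0.522 in WT (SD, n = 5 each). Within the ncRNA-poor naive libraries the Het share ran from 4.27 to 7.67%, and its upper end lay inside the WT range of 6.32 to 7.71%. The summed CPM of the 5 small subunits was 1.01 ± 0.159 times that of the 3 core partners in middle-depth KO and 0.825 ± 0.125 times in Het (SD, n = 6 and 7). Those values overlapped, from 0.811 to 1.17 in KO and from 0.67 to 0.976 in Het. After cuprizone the ratio was 1.1 ± 0.305 in KO and 0.644 ± 0.109 in Het (SD, n = 6 and 4), with KO from 0.768 to 1.66 and Het from 0.534 to 0.779. In the ncRNA-poor naive libraries it averaged 0.66 in KO, 0.512 in Het and 0.574 in WT, and at repopulation 0.853 in KO, 0.807 in Het and 0.759 in WT. The repopulation values overlapped, at 0.783 to 0.954 in KO, 0.785 to 0.865 in Het and 0.714 to 0.823 in WT. The ratio also differed between batches within a genotype: naive adult Het libraries averaged 0.512 in the ncRNA-poor, 0.825 in the middle-depth and 1.07 in the deep batch.

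**Figure D4:**
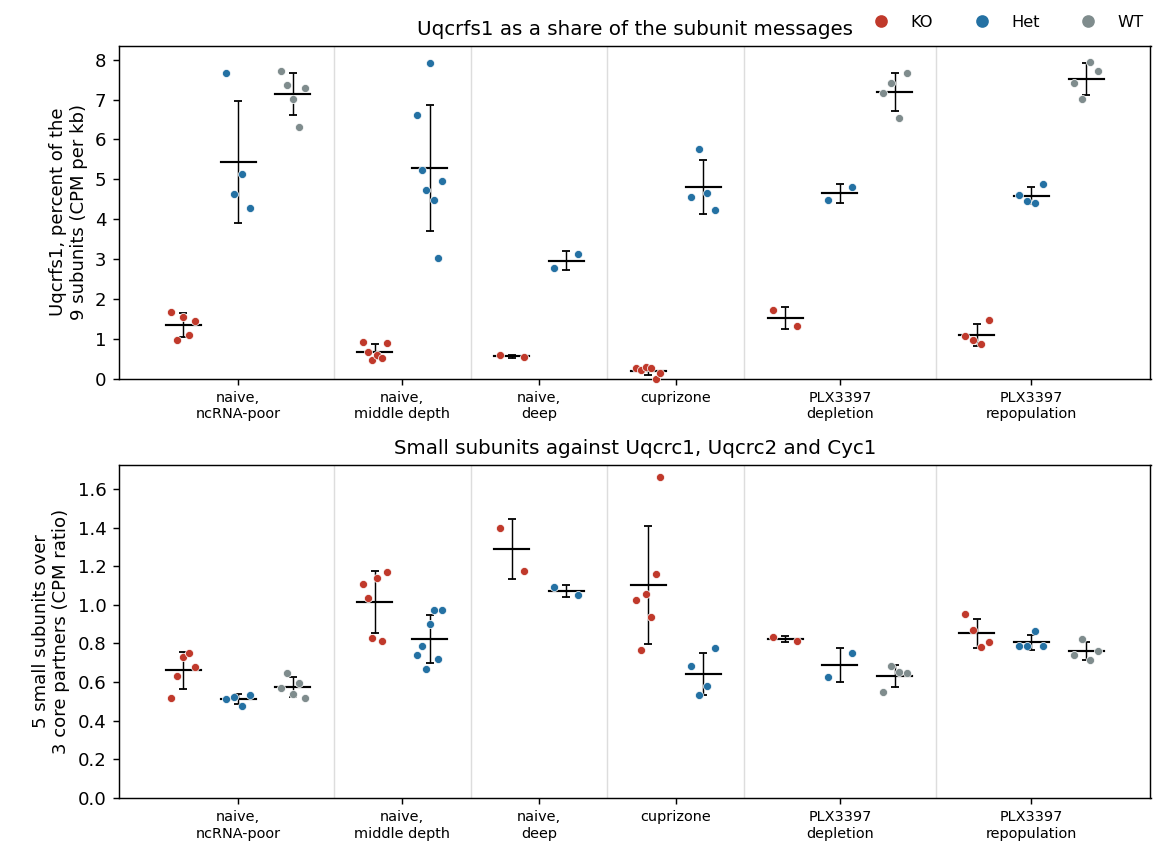
Upper panel, Uqcrfs1 as a percent of the summed CPM per kb of the 9 subunits in each adult library; lower panel, summed CPM of the 5 small subunits over that of Uqcrc1, Uqcrc2 and Cyc1. KO is left of Het and WT, bars are means and whiskers are SD; the KO shares lie under the control shares in all 6 sets, and the ratios differ between batches as well as genotypes.

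The other genes of complex III were taken as a fixed list of 12. Over the naive batches 2 rose and 1 fell (9.23% of all genes were called higher and 7.64% lower), and after cuprizone 2 rose (8.16% of all genes). Cytochrome b itself, mt-Cytb, had 1905 to 4245 CPM in middle-depth KO, against 1493 to 2673 CPM in Het, and rose by 0.76 over the naive batches (SE 0.13, adjusted p = 1.49e-05) and by 1.01 after cuprizone (SE 0.22, adjusted p = 0.000748). By batch its change against Het was 0.91 in the middle-depth (adjusted p = 0.000342), 1.63 in the deep (adjusted p = 0.00824) and 0.14 in the ncRNA-poor libraries (adjusted p = 0.864), and against WT it was 0.42 (adjusted p = 0.441). Uqcc2, an assembly factor for cytochrome b, had 7.65 to 15.8 CPM in middle-depth KO, against 2.97 to 8.25 CPM in Het, and rose by 0.78 (SE 0.12, adjusted p = 2.69e-06) and 0.88 (SE 0.22, adjusted p = 0.0039). It was also the 1 gene of the list called at repopulation against WT, with 24.1 to 32.2 CPM in KO, against 13.3 to 16.7 CPM in WT (0.84, SE 0.22, adjusted p = 0.0104), where 2.26% of all genes were called higher. Uqcc1, the partner of Uqcc2 in cytochrome b assembly, fell by 0.79 on the log2 scale over the naive batches (SE 0.28, adjusted p = 0.0407), with a change of 0.24 after cuprizone (SE 0.49, adjusted p = 0.835). By batch its change against Het was -1.20 in the middle-depth (adjusted p = 0.0367), -2.07 in the deep (adjusted p = 0.225) and 0.38 in the ncRNA-poor libraries (adjusted p = 0.807). At repopulation it was 0.86 against Het (adjusted p = 0.399) and 0.81 against WT (adjusted p = 0.434). Its values overlapped, at 10.3 to 24.5 CPM in middle-depth KO and 10.7 to 139.3 CPM in Het. The genes closest to the Rieske protein were not called over the naive batches: its matrix chaperone Lyrm7 changed by 0.21 (SE 0.71, adjusted p = 0.929) and Ttc19, which clears its cleavage fragments, by -0.28 (SE 0.15, adjusted p = 0.201). By batch Lyrm7 changed by 1.81 in the middle-depth, -1.66 in the ncRNA-poor and -0.79 in the deep libraries, and was called in none. Its levels were scattered, at 0.43 to 37.37 CPM in middle-depth KO and 0 to 14.35 CPM in Het. The electron acceptor Cycs changed by 0.19 (SE 0.09, adjusted p = 0.143).

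The complex III partners were not alone in this. Over the naive batches 9 of 11 nuclear complex IV genes were called higher, 16 of 36 of complex I, 8 of 16 of complex V, 1 of 4 of complex II, 6 of 14 iron-sulphur assembly genes (with 1 lower) and 12 of 13 protein-coding mitochondrial DNA genes, beside 3 of 9 complex III partners and 9.23% of all genes. After cuprizone the counts were 7 of 11, 23 of 36, 8 of 16, 2 of 4, 2 of 14 and 11 of 13, beside 6 of 9 partners and 8.16% of all genes. The list medians over the naive batches were 0.491 for complex IV, 0.313 for complex I, 0.327 for complex V, 0.0748 for complex II, 0.214 for iron-sulphur assembly and 0.813 for mitochondrial DNA, beside 0.383 for the partners and 0.0203 for all genes. Cox4i1, the largest nuclear subunit of complex IV, rose by 0.68 (SE 0.11, adjusted p = 9.74e-06), and Ndufa6, an accessory subunit of complex I, by 0.77 (SE 0.12, adjusted p = 1.34e-06). Hspa9, the mitochondrial Hsp70 that also serves cluster assembly, rose by 0.60 (SE 0.07, adjusted p = 1.61e-08), and Hscb, its co-chaperone there, by 0.82 (SE 0.15, adjusted p = 5.26e-05). The mitochondrial gene mt-Co1 rose by 1.32 (SE 0.14, adjusted p = 7.19e-10). In naive KO against WT, all ncRNA-poor, edgeR called 2 of 13 mitochondrial DNA genes and 1 of 14 iron-sulphur genes higher, beside 1.15% of all genes. It called 0 of the nuclear genes of complexes I, II, IV and V there, of which 3, 0, 2 and 2 had an unadjusted p under 0.05. Against Het in the same ncRNA-poor batch it called 2 of 36 complex I, 3 of 11 complex IV and 1 of 16 complex V genes higher. In that comparison 0 of 13 mitochondrial DNA, 0 of 4 complex II and 1 of 14 iron-sulphur genes were called higher, beside 1.48% of all genes.

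**Figure D5:**
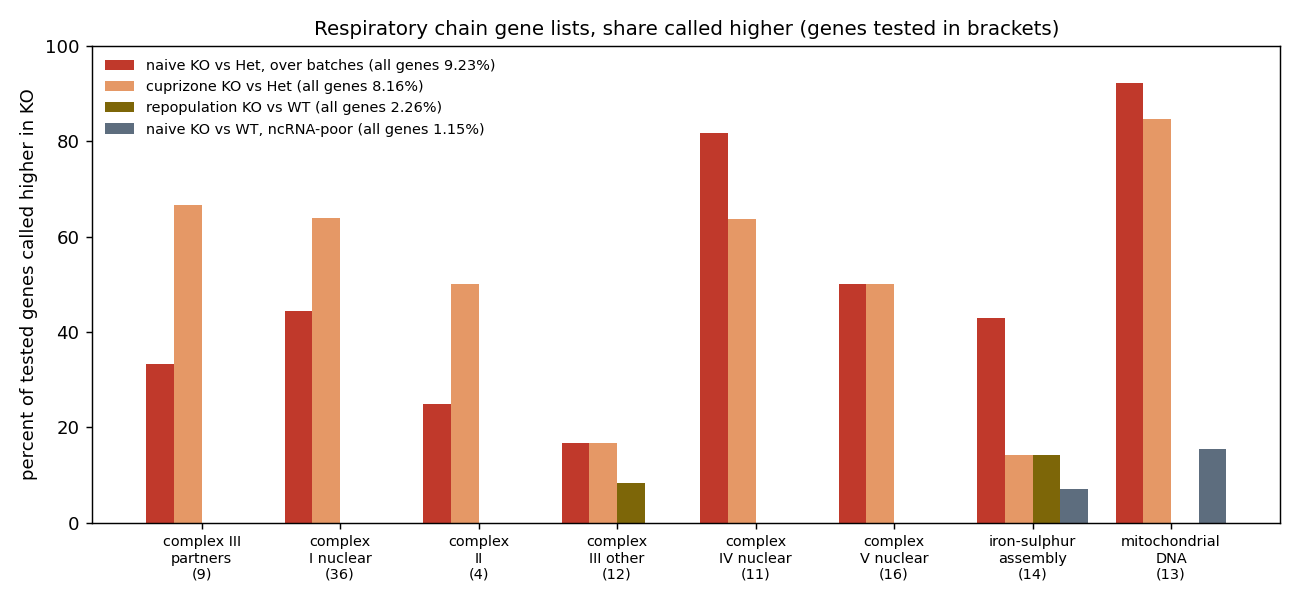
Percent of the tested genes of each list called higher in KO in 4 comparisons, with the number tested in brackets and the percent of all genes in the legend. Naive KO against Het and cuprizone KO against Het have tall bars for complex I, the complex III partners, complex IV and complex V, and the comparisons with WT show at most 2 called genes in any list.

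Compared per kilobase of exon, Bcs1l was the least abundant of the 10 messages in controls. In naive WT microglia Uqcrh stood at 67.0 ± 5.41, Uqcr11 at 63.5 ± 8.15 and Uqcrc1 at 63.1 ± 6.27 CPM per kb, which did not differ beyond their SD (n = 5). Uqcrc2 (44.1 ± 3.62), Uqcrb (43.2 ± 4.62) and Uqcr10 (40.2 ± 8.24) followed and also lay within their SD of each other, as did Uqcr10 and Cyc1 (35.3 ± 2.27). Below Cyc1, Uqcrfs1 had 28.8 ± 3.08, Uqcrq 18.1 ± 2.47 and Bcs1l 5.81 ± 0.675 CPM per kb, each apart from the next by more than their SD. The place of Uqcrq rests on a length of 1827 bases joined over its coding transcripts, and a shorter message would raise it. In naive ncRNA-poor KO microglia Uqcrfs1, at 5.58 ± 1.14 CPM per kb, lay within the SD of Bcs1l at 6.28 ± 0.995 (n = 5). In the middle-depth libraries it was the lowest of the 10 in KO at 1.76 ± 0.639 CPM per kb (n = 6).

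By Pearson correlation of log2 CPM over the 64 libraries, with each batch's mean subtracted, the genes most like the mean of the 8 partner subunits were Atp5h (0.947), Ndufa13 (0.902), Cox6b1 (0.902), Cox6c (0.894) and Atp5c1 (0.891), all subunits of complexes V, I or IV. Bcs1l was most like Dph6 (0.579), Letmd1 (0.556), Gga3 (0.555), Sfxn1 (0.533) and Abce1 (0.529). Uqcrfs1 was most like Tmem176b (0.831), Tmem176a (0.821), Tnfsf13b (0.806), Gimap6 (0.799) and Ust (0.795). The libraries share genotypes and treatments, so these values describe the table and carry no p. The members themselves, and genes with provisional names (Gm with a number, or ending in Rik), were left out of these rankings.

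The 3 old Het libraries, all in the deep batch, are given as values, since age was not tested here. Uqcrfs1 had 7.01, 13.1 and 9.29 CPM in old Het, against 11.4 and 12.7 CPM in the adult Het libraries of that batch, and the values overlapped. Uqcrh had 89.2, 57.5 and 84.9 CPM in old Het, against 34.3 and 36.5 CPM in adult Het. Old Het replicate 2 was the lowest of the 3 for each of the 5 small subunits and for Uqcrc1, Uqcrc2 and Cyc1. Mitochondrial DNA rows took 10.9 to 29% of counts in old Het, against 7.07 to 9.34% in adult Het, and the TMM factors were 0.709 to 0.92, against 1.01 to 1.05.

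Uqcrb has 4 near-identical pseudogene copies, of which 3 are rows of the table and together held counts equal to 1.65% of its own over all libraries, and Uqcrh has 2, at 0.0985%. How the counting treated reads shared between copies is not stated. The resulting uncertainty in Uqcrb and Uqcrh is therefore of unknown size, and these percentages do not bound it. On the opposite strand Uqcrc2 overlaps Pdzd9, Uqcrb overlaps Gm10767 and Uqcrh overlaps a pseudogene, Gm12854, whose median counts per library were 2, 3 and 0. The libraries were made with a stranded kit, but whether the counting used the strand is not stated.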

How the data were processed

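The authors deposited 1 table of raw counts per gene, whole numbers for 45708 gene rows in 64 libraries, whose columns were matched to samples by their names. Per the labels' protocols, the RNA of the sorted microglia was prepared with a strand-keeping total RNA kit. Per the submitters' processing notes, the build was GRCm38 and the tools, with roles not given, were STAR 2.6.1d, Salmon 1.5.2, bcl2fastq 2.20 and Trim Galore 0.6.7. The counting tool and its strand setting are not given in the sources used here, and single reads or molecules cannot be told apart in counts without molecular identifiers.

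From the deposited counts, genes with too few reads were filtered (filterByExpr, minimum count 10, minimum total 15), which left 18413, and 12089 rows were 0 in every library. edgeR 4.0.16 in R 4.3.3 was fitted once over all 64 libraries, with TMM scaling and 1 mean per group and batch (16 means). The quasi-likelihood test was two-sided, with Benjamini-Hochberg adjustment over 18413 genes, a threshold of 0.05 and 95% intervals, for 18 contrasts. The over-batch comparison is the weighted mean of the 3 within-batch differences. Levels are TMM-scaled CPM, divided by kilobases of exon (GENCODE M21) where genes are compared with each other. DESeq2 1.42.0 was an alternative, and the procedure was tested on simulated data. Batches were set by how much of a library fell on Gm26917 and Yam1 (under 1%), then by total counts (over 15 M, under 5.5 M). The libraries' sex, read from 4 Y-linked genes (41 male, 23 female), entered only an alternative.

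The members, gene lists, batch rule and tests were chosen with earlier results of these data known. All 10 members are named. Of each pathway list, up to 3 members called over the naive batches with the smallest p could be named, and any of the other complex III genes. Replicate numbers recur across groups, but same-numbered libraries did not deviate together (correlations of -0.21 to 0.21, and no comparison with every pair above 0.1), so no pairing was used. Near-identical copies are those with at least 90% identity over at least 200 bases. The floors of 3 counts cover counting error only, while the 95% intervals come from the quasi-likelihood SE and also carry the spread between libraries.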

Additional observations from a re-analysis of the deposited data

Results flagged for a closer look

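Of 110 sets of 4 to 7 libraries of 1 gene, group and batch examined, 5 held a library set apart from the rest of its set, and chance gives about 1 in 20. Het repopulation replicate 4 had 35.87 CPM of Uqcrfs1, against 29.03 to 29.86 CPM in the other 3 libraries. KO cuprizone replicate 3 stood apart for both Uqcrb (56.3 CPM, against 31.58 to 39.73) and Uqcrq (45.98 CPM, against 27.48 to 32.37). KO naive replicate 8 was low for Uqcrb, with 20.92 CPM against 31.9 to 37.43 in the other middle-depth KO libraries. WT repopulation replicate 3 was high for Uqcrq, with 50.99 CPM against 36.66 to 37.93.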

How the results depend on the processing

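Uqcrfs1 was lower in KO in all 9 comparisons under every alternative tried, and missed the threshold in 4 cases: in the order of deposit (-1.72, adjusted p = 0.118), without KO replicate 12 in the deep batch (-2.18, adjusted p = 0.0821), and at depletion with no batch (-1.96, adjusted p = 0.0954) or without KO replicate 2 (-1.70, adjusted p = 0.0579). Where 1 library is left in an arm, it is assumed to vary like the other groups. For the number of partners called, fitting only the libraries compared gave 0 in the middle-depth comparison, 1 after cuprizone, 2 at repopulation against Het and 2 for repopulation against naive in KO. With no batch in the model, naive adult libraries of a genotype were pooled over the batches. The naive comparisons of KO with Het then became the same comparison, in which 2 partners were called. It was also 2 after cuprizone. With naive KO and Het libraries of all batches it was 1 (Uqcrc1, lower) in naive KO against WT. There 1603 of 18413 genes were called lower. The number of partners called was 8 (lower) in naive Het against WT, beside 2558 genes called lower. For repopulation against naive in KO it was 7, all higher, beside 1433 genes called higher and 2485 called lower. Libraries together in the order of deposit gave 0 in naive ncRNA-poor KO against Het. After cuprizone it was 3 with DESeq2 size factors, 2 with no filter on low counts and 2 with total counts and no TMM. For repopulation against naive in KO it was 2 with sex as a covariate and 2 with DESeq2. Leaving out each library in turn gave 2 to 5 in the middle-depth comparison, 3 to 6 over the naive batches, 1 to 6 after cuprizone and 0 to 1 for repopulation against naive in KO. With the replicate block and library batch together it was 3 in the middle-depth comparison, 4 over the naive batches and 5 after cuprizone. The causes were not tested, except that the fits on fewer libraries have fewer samples by construction.

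Counts over all genes also depended on the design. With only the libraries compared, 771 genes instead of 2531 were called in the middle-depth comparison and 918 instead of 2576 after cuprizone. With no batch in the model, and naive libraries pooled over the batches, it was 5291 instead of 356 in naive KO against WT. It was then 6699 instead of 4 in naive Het against WT and 1760 instead of 3106 in naive KO against Het. Without batch it was also 1104 instead of 2576 after cuprizone and 51 instead of 316 at depletion. With DESeq2 it was 388 instead of 105 in the deep batch, 984 instead of 502 in the ncRNA-poor comparison with Het, and 1377 and 1374 instead of 851 and 881 at repopulation against Het and WT. Libraries together in the order of deposit gave 44 instead of 502 in KO against Het and 81 instead of 356 in KO against WT. In the deep batch 948 genes were called with no TMM, of which 3.9% were higher, against 61% with TMM, and in naive Het against WT 96 with the replicate block. The alternatives with total counts and with libraries left out of arms of 6 or 7 were chosen after seeing the data. Uqcrfs1 in cuprizone KO, at 0 to 5 counts a library, is limited by depth.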
